A study of Mus musculus with 12 samples.

Results

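The 9 genes followed here are ones whose RNA marks the loop of Henle and the distal tubule: Umod, Slc12a1, Kcnj1 and Cldn16 for the thick ascending limb, and Slc12a3, Calb1, Pvalb, Egf and Trpm6 for the distal convoluted tubule. Egf is made in both segments and was counted with the second. They are 9 of the 18193 mouse genes that had a probe set with a single gene symbol on the array. They were chosen by name, with earlier results of these data known. Each was represented by its probe set with the highest mean over the 12 arrays. All 9 passed the filter on low values, a log2 value above 4 on at least 3 of the 12 arrays. The samples were proximal tubules enriched from mouse kidney on a Percoll density gradient, with 3 arrays in each of 4 groups: dB/dB catalase-Tg, dB/dB, catalase-Tg and wild type. dB/dB mice have defective leptin receptors and grow obese and diabetic, and catalase, which the transgene adds, degrades hydrogen peroxide. All mice were 20 weeks old and on a normal diet, and the labels name neither strain nor sex. From what is known of this mouse line, and not from its labels, the transgene carries rat catalase under the Kap promoter, which is active in the proximal tubule. The labels number the samples of a group 1 to 3 and do not say whether they came from separate animals, so the p-values reflect only the variation among these samples, and that variation may be technical.

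The thick ascending limb takes up sodium, potassium and chloride from the tubular fluid without water and drives the paracellular uptake of calcium and magnesium. The distal convoluted tubule follows it and takes up sodium with chloride, together with regulated amounts of calcium and magnesium. Both segments come after the proximal tubule along the nephron and lie beside it in the kidney cortex. The genes followed here code for the apical salt cotransporters of each segment (Slc12a1 and Slc12a3), the potassium channel that feeds the first of them (Kcnj1), proteins of calcium and magnesium handling (Cldn16, Calb1, Pvalb and Trpm6), and secreted or shed proteins (Umod and Egf).

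The promoters of 3 of these genes are shown: those of Umod and Slc12a1, which held a match to the motif searched, and beside them that of Slc12a3, the salt cotransporter of the distal segment, which held none. Each window runs 5′ to 3′ on the gene's strand from 250 bases before to 50 bases after the start, taken from RefSeq on GRCm38.p6, where 8 of the 9 genes had a window and Calb1 had none. Umod lies on the minus strand (chr7:119479213-119479512), Slc12a1 on the plus strand (chr2:125152350-125152649) and Slc12a3 on the plus strand (chr8:94328958-94329257). Capitals mark matches to the HNF1-type motif GTTAATNATTAAC, a palindromic site of homeodomain proteins of tubule cells, searched on both strands with up to 2 mismatches.
Umod: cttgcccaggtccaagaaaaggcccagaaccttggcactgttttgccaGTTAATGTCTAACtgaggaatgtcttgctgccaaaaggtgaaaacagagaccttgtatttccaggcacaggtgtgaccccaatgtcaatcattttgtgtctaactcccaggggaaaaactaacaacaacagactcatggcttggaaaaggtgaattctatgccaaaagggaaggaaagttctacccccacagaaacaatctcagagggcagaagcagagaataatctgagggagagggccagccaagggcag
Slc12a1: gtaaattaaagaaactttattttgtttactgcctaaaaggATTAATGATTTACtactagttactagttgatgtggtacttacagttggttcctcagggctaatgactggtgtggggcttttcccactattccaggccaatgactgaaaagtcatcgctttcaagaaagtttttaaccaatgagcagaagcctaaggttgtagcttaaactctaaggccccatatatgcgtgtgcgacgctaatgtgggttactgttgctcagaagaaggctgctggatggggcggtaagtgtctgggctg
Slc12a3: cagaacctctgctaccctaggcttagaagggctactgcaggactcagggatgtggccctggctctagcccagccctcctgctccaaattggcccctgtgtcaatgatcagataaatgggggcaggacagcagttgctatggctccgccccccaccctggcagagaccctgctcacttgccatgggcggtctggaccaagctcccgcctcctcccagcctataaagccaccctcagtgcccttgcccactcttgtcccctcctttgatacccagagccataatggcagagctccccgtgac
The Umod window held one match at positions 49 to 61, and the Slc12a1 window held one at positions 41 to 53, each with 2 mismatches. The Slc12a3 window held none of these letters. In all, 2 of the 10 windows of these genes held a match, beside 1.36% of all 32851 windows. A match in letters is a description and not a measured site.

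The tissue label was checked against 10 proximal tubule markers. Of these, 9 had a probe set and passed the filter, and Ggt1 had none. Slc34a1, the apical sodium-phosphate cotransporter of the proximal tubule, averaged 13.67 ± 0.04 (log2, SD, n = 3) in dB/dB catalase-Tg, 13.49 ± 0.01 in dB/dB, 13.87 ± 0.18 in catalase-Tg and 13.34 ± 0.43 in wild type. Other markers varied more within groups. Slc22a6, the basolateral organic anion transporter, read 9.48, 11.69 and 11.62 on the dB/dB catalase-Tg arrays, 9.91, 8.72 and 10.05 on the dB/dB arrays, 8.38, 11.62 and 11.56 on the catalase-Tg arrays, and 4.86, 10.81 and 11.12 on the wild-type arrays. Slc22a8, Slc13a3 and Lrp2 were at 8.93, 9.29 and 10.39 on wild type 1, against 12.49, 12.77 and 13.36 on wild type 2. Arrays of one group correlated at 0.828 to 0.991 over the 18144 probe sets tested. Xist, an RNA of female cells, was at 11.91 on one wild-type array, sample 2, and at 6.72 on another, sample 3. It lay between 2.31 and 2.67 on the other 10 arrays, near the floor of 2.30. Eif2s3y, a gene of the Y chromosome, was at that floor on wild type 2 and at 7.89 on wild type 3. It lay between 7.88 and 8.93 on the other 10 arrays. Wild type 2 thus stood apart from all other arrays in both RNAs. The part of sex in the comparisons with wild type was not tested. The lowest array weights in limma went to dB/dB catalase-Tg 1 (0.172), wild type 1 (0.227) and catalase-Tg 1 (0.287), which means that they lay farthest from the rest of their groups. For each comparison below, the count of genes passing is also given without these arrays.

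All 4 thick limb genes were lowest in catalase-Tg and highest in dB/dB, and the wild-type arrays were spread widely between those groups. Umod, which codes for uromodulin, the main protein of normal urine, read 14.54, 14.36 and 14.34 (log2) on the dB/dB catalase-Tg arrays, 14.69, 14.60 and 14.78 on the dB/dB arrays, 12.49, 13.35 and 13.48 on the catalase-Tg arrays, and 14.83, 13.36 and 14.34 on the wild-type arrays. Wild type 1 was above every dB/dB array, and wild type 2 lay inside the catalase-Tg range. The 3 dB/dB catalase-Tg arrays lay below all dB/dB arrays and above all catalase-Tg arrays. Slc12a1, the salt cotransporter that loop diuretics block, read 12.84, 12.70 and 12.88 on the dB/dB catalase-Tg arrays, 13.53, 12.55 and 13.41 on the dB/dB arrays, 8.70, 10.64 and 10.77 on the catalase-Tg arrays, and 13.85, 11.09 and 12.78 on the wild-type arrays. No catalase-Tg array reached the lowest array of any other group, while the ranges of the dB/dB catalase-Tg, dB/dB and wild-type arrays overlapped.

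Kcnj1, the apical channel that returns potassium to the lumen, read 11.43, 10.26 and 10.18 (log2) on the dB/dB catalase-Tg arrays, 12.02, 11.76 and 11.48 on the dB/dB arrays, 8.0, 8.51 and 8.39 on the catalase-Tg arrays, and 12.38, 8.13 and 10.78 on the wild-type arrays. Here wild type 2 sat among the catalase-Tg arrays and wild type 1 above the dB/dB arrays, so that the wild-type range covered all arrays of the other groups but catalase-Tg 1. Cldn16, a claudin of the tight junctions through which magnesium and calcium pass, read 7.79, 7.67 and 7.26 on the dB/dB catalase-Tg arrays, 9.32, 7.22 and 8.68 on the dB/dB arrays, 3.18, 5.06 and 5.08 on the catalase-Tg arrays, and 9.14, 5.89 and 7.72 on the wild-type arrays. The catalase-Tg arrays lay below all others. Wild type averaged 7.58 and dB/dB catalase-Tg 7.57, far closer than the spread within either group, and this was the single gene of the 9 in which wild type stood second in the order of means.

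The distal convoluted genes had the same order of group means, dB/dB above dB/dB catalase-Tg above wild type above catalase-Tg. Slc12a3, the cotransporter that thiazides block, read 13.82, 12.01 and 11.89 (log2) on the dB/dB catalase-Tg arrays, 14.09, 13.86 and 13.72 on the dB/dB arrays, 10.59, 10.50 and 10.26 on the catalase-Tg arrays, and 14.06, 9.30 and 12.23 on the wild-type arrays. One dB/dB catalase-Tg array, sample 1, lay inside the dB/dB range and the other 2 lay below it. Wild type 2 was below every catalase-Tg array. Calb1, a calcium-binding protein of the cytosol of distal tubule cells, read 12.97, 12.56 and 12.48 on the dB/dB catalase-Tg arrays, 13.08, 13.34 and 13.00 on the dB/dB arrays, 9.48, 9.75 and 9.60 on the catalase-Tg arrays, and 12.95, 9.35 and 12.15 on the wild-type arrays. Calb1 was the single gene of the 9 in which all dB/dB arrays lay above all wild-type arrays.

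Pvalb, a calcium-binding protein of the early distal convoluted tubule, read 10.52, 9.04 and 8.96 (log2) on the dB/dB catalase-Tg arrays, 11.21, 11.10 and 10.10 on the dB/dB arrays, 6.95, 7.94 and 7.47 on the catalase-Tg arrays, and 11.44, 7.18 and 9.85 on the wild-type arrays. Sample 1 of dB/dB catalase-Tg stood apart from its group again, as did all 3 wild-type arrays from each other. Egf, the precursor of epidermal growth factor, read 13.59, 12.96 and 13.25 on the dB/dB catalase-Tg arrays, 13.83, 13.56 and 13.44 on the dB/dB arrays, 10.68, 11.63 and 11.46 on the catalase-Tg arrays, and 14.20, 11.67 and 13.37 on the wild-type arrays. The catalase-Tg arrays lay below all others, by a narrow margin below wild type 2. Trpm6, the apical magnesium channel, read 9.02, 7.25 and 7.36 on the dB/dB catalase-Tg arrays, 9.19, 9.40 and 8.60 on the dB/dB arrays, 4.64, 5.18 and 4.83 on the catalase-Tg arrays, and 9.78, 3.89 and 7.52 on the wild-type arrays. Wild type 2 was the lowest of all 12 arrays and wild type 1 the highest.

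**Figure D1:**
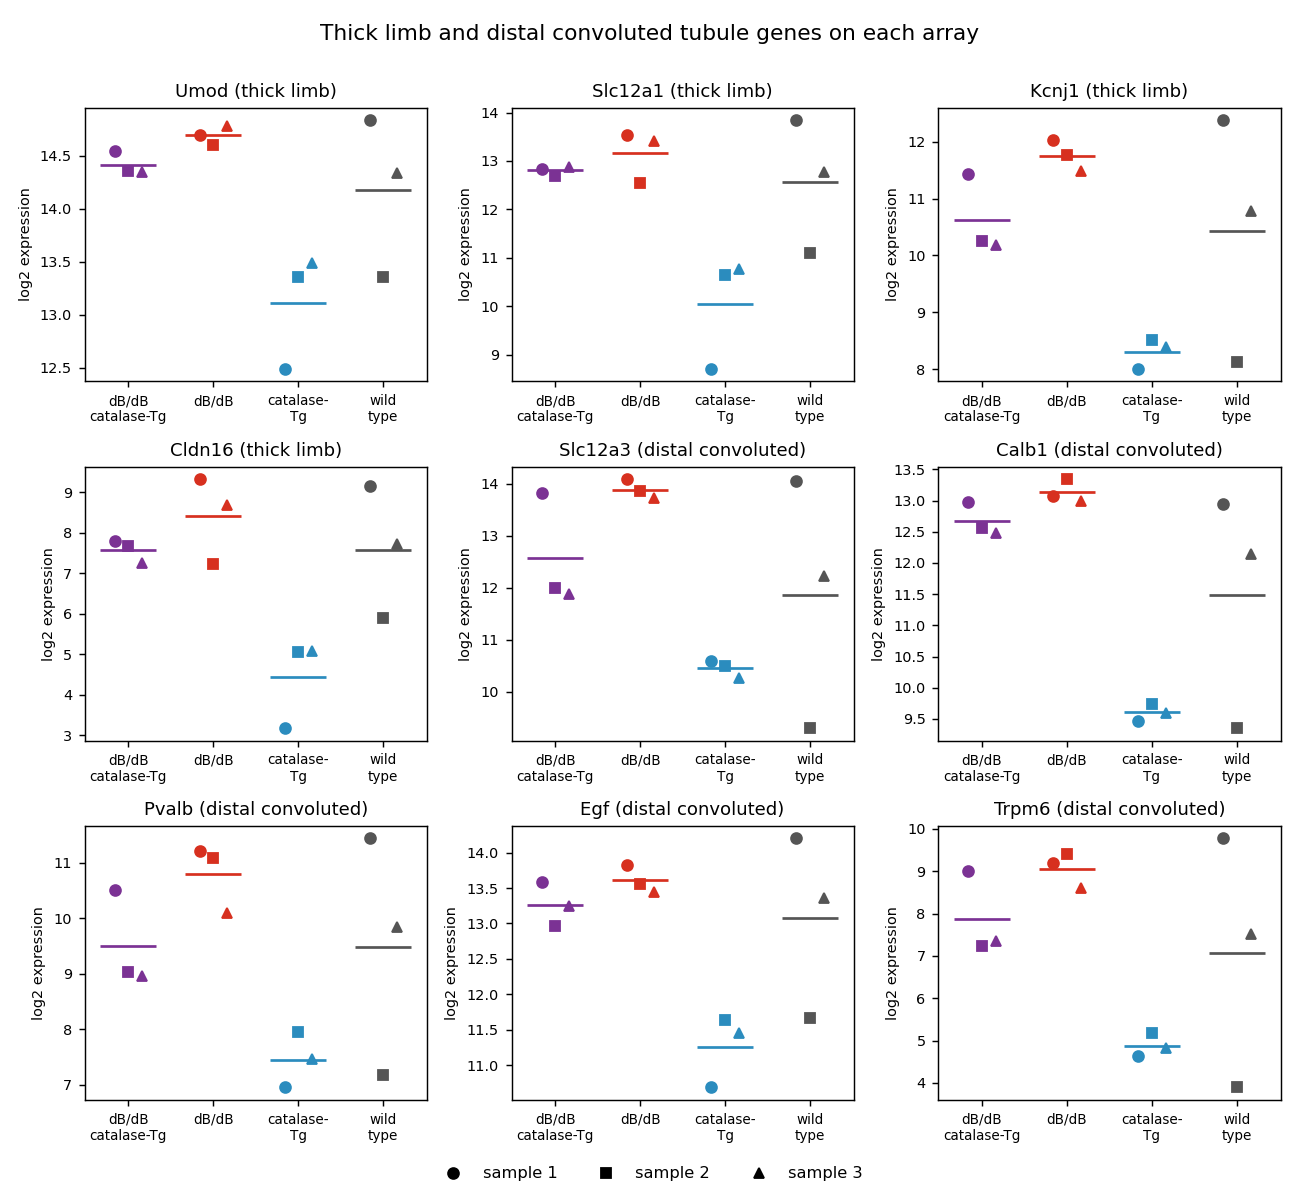
Log2 expression of the 9 genes on each array, by group, with dB/dB catalase-Tg, dB/dB, catalase-Tg and wild type from left to right. Each panel is a gene, symbols are single arrays with the shape giving the sample number, the vertical axis is the log2 value on its own scale, and the line is the group mean. The catalase-Tg arrays lie below both groups of dB/dB mice for every gene, and the wild-type arrays span most of the range.

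The order of means was dB/dB, dB/dB catalase-Tg, wild type and catalase-Tg from high to low in 8 of the 9 genes. Neighbours in that order often did not differ beyond their spread. The dB/dB catalase-Tg and wild-type arrays overlapped in all 9 genes, where 0.942% of all 18144 probe sets tested were apart upward and 7.10% downward. Every dB/dB array lay above every catalase-Tg array in all 9 genes, as for 17.5% of probe sets. The ranges of dB/dB catalase-Tg and dB/dB were apart for Umod, Kcnj1 and Calb1, and those of catalase-Tg and wild type were apart for Slc12a1, Cldn16 and Egf. The SD within a group had a median over the 9 genes of 0.31 in dB/dB catalase-Tg, 0.27 in dB/dB, 0.50 in catalase-Tg and 1.89 in wild type, and wild type had the largest SD for each gene. In all 9 genes wild type 1 was the highest and wild type 2 the lowest of the wild-type arrays. In bulk RNA such as this, fewer cells of a segment and less RNA per cell cannot be told apart.

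The first comparison asks whether the genes differed between mice with and without the leptin receptor defect when both carried the transgene. All 9 genes were higher on every dB/dB catalase-Tg array than on any catalase-Tg array, a separation upward that 6.67% of the 18144 probe sets had. No gene passed an adjusted p of 0.05 in limma, a threshold that 0.0276% of probe sets passed in either direction, and 8 of the 9 had an unadjusted p under 0.05 upward, beside 2.67% of all. Calb1 averaged 12.67 ± 0.26 in dB/dB catalase-Tg and 9.61 ± 0.14 in catalase-Tg (log2, SD, n = 3 each), a difference of 3.06 (SE 0.70, 95% confidence interval 1.51 to 4.62, 8.36-fold, limma adjusted p = 0.463). Cldn16 averaged 7.57 ± 0.28 in dB/dB catalase-Tg and 4.44 ± 1.09 in catalase-Tg, a difference of 3.13 (SE 0.82, interval 1.32 to 4.95, 8.78-fold, limma adjusted p = 0.541). Slc12a3, the exception to the unadjusted count, differed by 2.12 (SE 0.96, interval 0.00 to 4.25).

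The other genes differed by 1.31 for Umod, 2.77 for Slc12a1, 2.33 for Kcnj1, 2.05 for Pvalb, 2.01 for Egf and 2.99 for Trpm6, all log2 and higher in dB/dB catalase-Tg. The median difference was 2.55 over the thick limb genes and 2.12 over the distal convoluted genes, beside -0.10 over all probe sets tested. The wild-type arrays do not enter these differences but do enter the shared estimate of spread. Without the wild-type group, a choice made after seeing the data, 4 of the 9 genes passed: Calb1 (limma adjusted p = 0.00240), Egf (0.0238), Kcnj1 (0.0252) and Trpm6 (0.0301), in a fit that called 174 of 18144 probe sets. Without wild type 2 alone, Calb1 passed (1 of 9) beside 12 of 18144 probe sets. With array weights 7 of the 9 passed, all but Slc12a3 and Pvalb, beside 883 probe sets in all. Without the 3 arrays of lowest weight 0 of the 9 passed, beside 23. Over all alternatives the adjusted p of Calb1 ran from 0.00240 to 0.921, of Egf from 0.0112 to 0.960, of Kcnj1 from 0.0252 to 0.990 and of Trpm6 from 0.0301 to 0.990.

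The transgene in mice without the leptin receptor defect was compared next. All 9 genes averaged lower in catalase-Tg than in wild type, and none passed an adjusted p of 0.05 in limma, beside 0.0220% of probe sets in either direction. Downward, 7 had an unadjusted p under 0.05, all 4 thick limb genes with Calb1, Pvalb and Egf, beside 6.28% of all. Cldn16 averaged 4.44 ± 1.09 in catalase-Tg against 7.58 ± 1.63 in wild type, which is a log2 difference of -3.14 (SE 0.82, interval -4.96 to -1.33, limma adjusted p = 0.415). Slc12a1 averaged 10.04 ± 1.16 in catalase-Tg against 12.57 ± 1.39 in wild type, which is a log2 difference of -2.54 (SE 0.69, interval -4.06 to -1.01, limma adjusted p = 0.441). Egf differed by -1.82 (SE 0.53, limma adjusted p = 0.455). These 3 genes did not overlap between the groups, as was so downward for 7.80% of all probe sets. Slc12a3 differed by -1.41 with an interval from -3.54 to 0.71, and Trpm6 by -2.18 with an interval from -4.72 to 0.36.

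The calls in this comparison depended on wild type 2, and the sizes of the differences on wild type 1 too. Without wild type 2, 8 of the 9 genes passed in limma, all but Slc12a3, in a fit that called 270 of 18144 probe sets. Calb1 then differed by -2.94, and its adjusted p ran from 0.00807 to 1.00 as each array was left out in turn. With wild type 1 as the lone array of its group, which assumes that it varies like the others, all 9 passed beside 2180 probe sets. Without any other single array none passed, and without the 3 arrays of lowest weight none passed, beside 31 probe sets in all. Without wild type 1 the differences were -0.32 for Slc12a3, -0.82 for Trpm6, -1.16 for Kcnj1 and -1.14 for Calb1. The median difference of the 9 genes was -2.33 over the thick limb genes and -1.88 over the distal convoluted genes, beside -0.02 over all probe sets.

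The leptin receptor defect was then compared in mice without the transgene. All 9 genes averaged higher in dB/dB than in wild type, by 0.51 (Umod) to 2.03 (Slc12a3) on the log2 scale, and none passed an adjusted p of 0.05 in limma, as none of the 18144 probe sets did (0%). One gene, Calb1, had an unadjusted p under 0.05 upward, beside 1.22% of all. It averaged 13.14 ± 0.18 in dB/dB against 11.48 ± 1.89 in wild type, or 1.66 higher (SE 0.70, interval 0.10 to 3.21, limma adjusted p = 0.767). It was also the one gene with no overlap of the groups, a separation upward seen in 2.52% of all probe sets. Slc12a3 averaged 13.89 ± 0.19 in dB/dB against 11.86 ± 2.40 in wild type, or 2.03 higher with an interval from -0.09 to 4.15. Thick limb genes had a median of 0.71 and distal convoluted genes of 1.66, beside -0.11 over all probe sets.

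The direction of this comparison depended on the wild-type arrays. Without wild type 2, Slc12a1 (-0.15), Cldn16 (-0.022) and Egf (-0.17) no longer averaged higher in dB/dB. Without dB/dB catalase-Tg 1, catalase-Tg 1 and wild type 1 together, 6 of the 9 genes passed in limma, 2 of the thick limb and 4 of the distal convoluted tubule, where 4875 of 18144 probe sets passed. Against wild type 1 alone, 8 of the 9 genes averaged lower in dB/dB, all but Calb1.

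The transgene in dB/dB mice went with lower means for all 9 genes, by amounts within the error of the fit. None passed an adjusted p of 0.05 in limma, beside 0.00551% of probe sets in either direction, and none had an unadjusted p under 0.05, beside 5.41% of all downward. Umod averaged 14.41 ± 0.11 in dB/dB catalase-Tg and 14.69 ± 0.09 in dB/dB, a difference of -0.28 (SE 0.36, interval -1.07 to 0.52, limma adjusted p = 0.790). Kcnj1 averaged 10.62 ± 0.70 in dB/dB catalase-Tg and 11.76 ± 0.27 in dB/dB, a difference of -1.13 (SE 0.83, interval -2.97 to 0.71, limma adjusted p = 0.651). Umod, Kcnj1 and Calb1 did not overlap between the groups, as was so downward for 11.1% of all probe sets. The thick limb median was -0.59 and the distal convoluted median -1.19, beside -0.02 over all probe sets. Wild-type arrays entered only the shared estimate of spread here, and wild type had the largest SD for each gene. The dB/dB catalase-Tg group was itself uneven. Its sample 1 lay inside the dB/dB range for 6 of the 9 genes, and its samples 2 and 3 each lay below that range for 7. With array weights 5 genes passed (Kcnj1, Cldn16, Slc12a3, Pvalb and Trpm6), beside 6989 of 18144 probe sets. With dB/dB catalase-Tg 1 left out 0 of the 9 passed, beside 1 probe set in all, and without the 3 arrays of lowest weight 0 of the 9 passed, beside 5043.

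Whether the transgene difference changed with the leptin receptor defect was asked of the interaction. It was above 0 for all 9 genes, from 0.09 for Slc12a3 to 2.31 for Cldn16 on the log2 scale, and no gene passed an adjusted p of 0.05, beside 0.00551% of probe sets in either direction. Slc12a1 alone had an unadjusted p under 0.05 upward, beside 0.617% of all. For it the transgene difference was -0.35 in dB/dB mice and -2.54 in mice without the defect, and the interaction was 2.18 (SE 0.97, interval 0.02 to 4.34, limma adjusted p = 1.00). The median interaction was 1.59 over the thick limb genes and 0.99 over the distal convoluted genes, beside 0.01 over all probe sets. The direction turned for some genes. Without dB/dB catalase-Tg 1, catalase-Tg 1 and wild type 1, the interaction was -0.53 for Kcnj1, -1.56 for Slc12a3, -0.99 for Pvalb and -1.06 for Trpm6. With wild type 1 alone left out it was -1.005 for Slc12a3, -0.24 for Pvalb and -0.37 for Trpm6.

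Averaged over both states of the transgene, the leptin receptor defect went with higher values in all 9 genes, each with an unadjusted p under 0.05, beside 4.17% of all probe sets upward. None passed an adjusted p of 0.05 in limma, where 0.0165% of probe sets did in either direction. The largest of these differences relative to its error was that of Calb1 (2.36, SE 0.50, interval 1.26 to 3.46, limma adjusted p = 0.299). Without wild type 1 all 9 genes passed, in a fit that called 1246 of 18144 probe sets, and without wild type 2 Calb1 alone passed, beside 6 probe sets in all. Averaged over both states of the defect, the transgene went with lower values in all 9 genes, from -0.67 for Umod to -1.99 for Cldn16. An unadjusted p under 0.05 was found for 7 of them, all but Slc12a3 and Trpm6, beside 12.2% of all probe sets downward, and none passed in limma, where 0.0276% of probe sets did in either direction. Without wild type 2 all 9 passed beside 969 probe sets in all, and without the 3 arrays of lowest weight none passed, beside 3711. The F test over the 4 groups gave adjusted p-values of 0.275 to 0.364 in limma, with 0 genes past the threshold beside 0.0386% of all probe sets, and 9 genes with an unadjusted p under 0.05 beside 12.6%. By that test 6 of the 9 genes passed without wild type 1, beside 745 probe sets in all, and 9 of the 9 without wild type 2, beside 301.

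**Figure D2:**
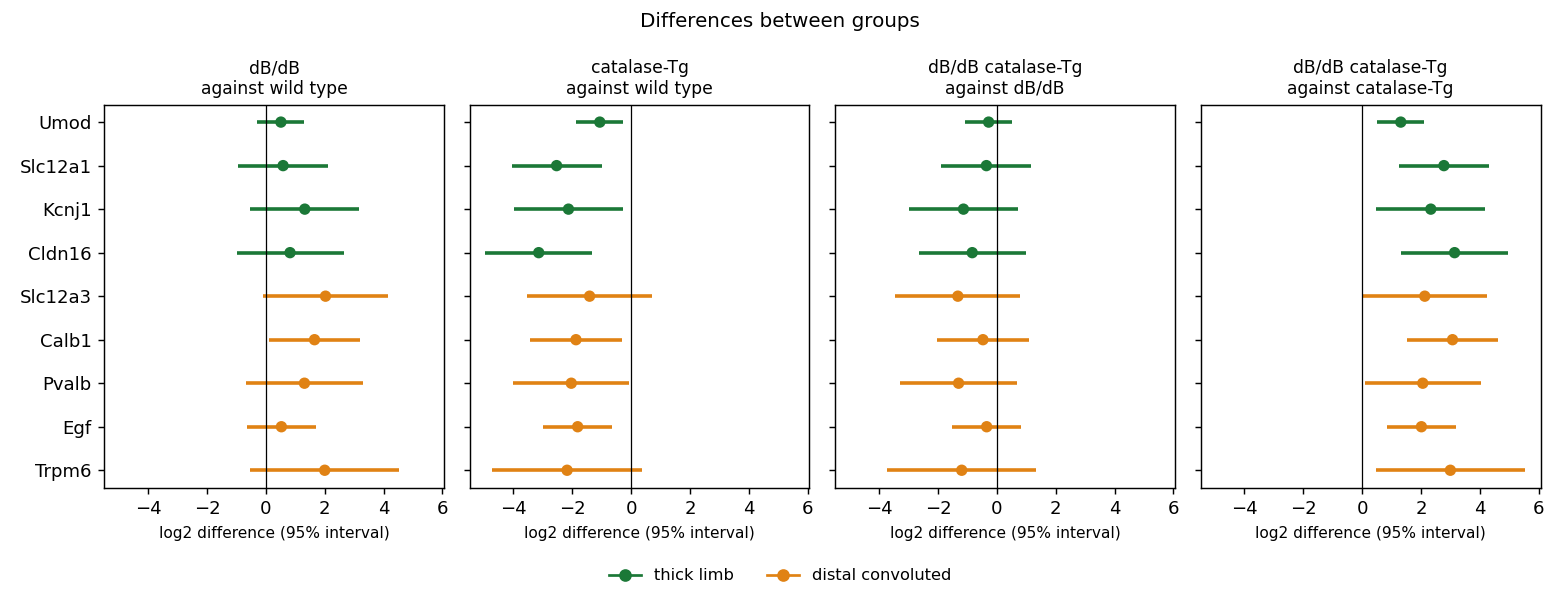
Log2 differences of the 9 genes in 4 comparisons of groups, with points for the differences, bars for their 95% confidence intervals from limma and a vertical line at 0. Thick limb genes are in green and distal convoluted genes in orange. The intervals of dB/dB catalase-Tg against dB/dB include 0 for all 9 genes, and those of dB/dB catalase-Tg against catalase-Tg lie above 0 for 8.

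To set the segments side by side, each array was given a score for each segment, the mean over its genes of the difference from the gene's own mean over the 12 arrays. The thick limb score was 0.77, 0.37 and 0.29 (log2) on the dB/dB catalase-Tg arrays, 1.51, 0.65 and 1.21 on the dB/dB arrays, -2.79, -1.49 and -1.45 on the catalase-Tg arrays, and 1.67, -1.26 and 0.52 on the wild-type arrays. The distal convoluted score was 1.33, 0.11 and 0.14 on the dB/dB catalase-Tg arrays, 1.63, 1.60 and 1.12 on the dB/dB arrays, -2.18, -1.65 and -1.93 on the catalase-Tg arrays, and 1.83, -2.37 and 0.37 on the wild-type arrays. Both scores put wild type 1 at the top of the 12 arrays and wild type 2 next to the catalase-Tg arrays, just above them for the thick limb and below them for the distal convoluted tubule. The segments differed most on wild type 2, where the thick limb score exceeded the distal score by 1.11, and on dB/dB 2, where it was 0.95 below, that is a difference of -0.95. On the other 10 arrays the difference lay between -0.60 (catalase-Tg 1) and 0.48 (catalase-Tg 3), and in each group it took both signs.

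**Figure D3:**
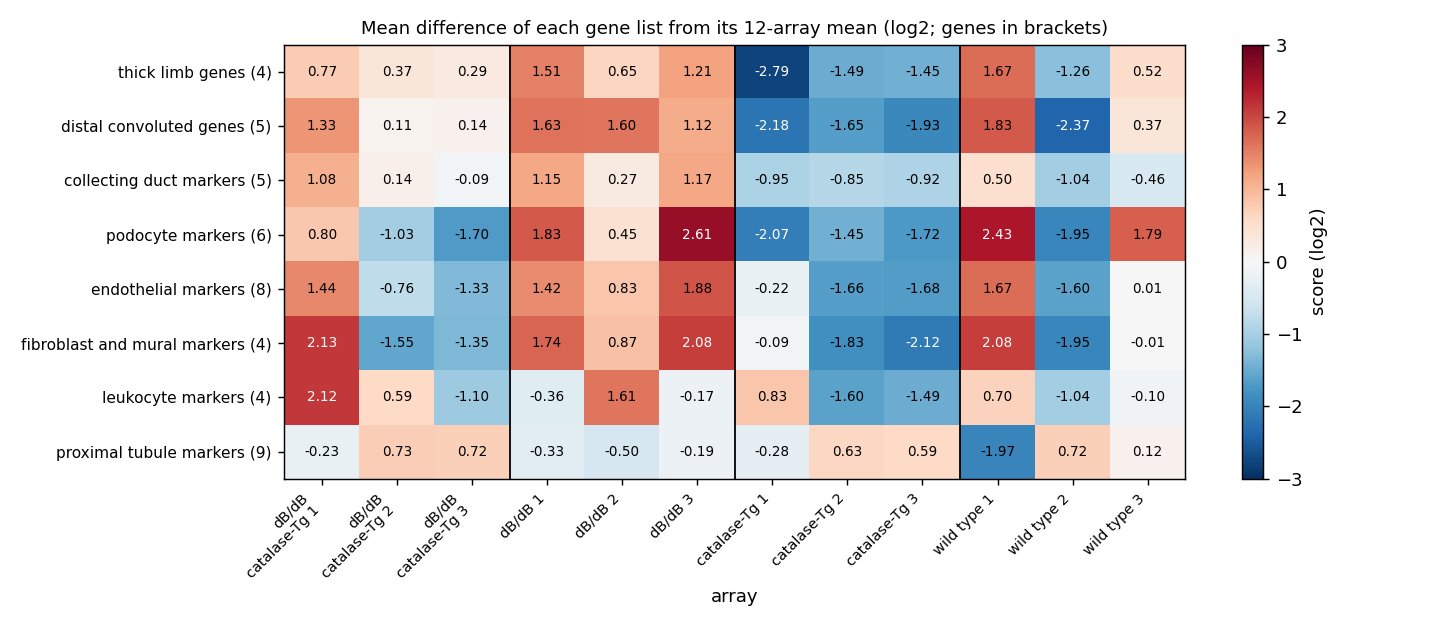
Scores on each array (columns, by group) of the thick limb genes, the distal convoluted genes and the marker lists (rows, with the number of genes in brackets). Colour and the printed number give the mean log2 difference from the mean over the 12 arrays. The podocyte, endothelial and mural lists have arrays above and below 0 in both dB/dB catalase-Tg and wild type. The distal score is above 0 on all 3 dB/dB catalase-Tg arrays (0.11 to 1.33) and takes both signs in wild type (-2.37 to 1.83).

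Further genes of the same segments were read from lists that do not include the 9. Of 16 further thick limb genes, 14 had a probe set and 11 passed the filter, with Cldn14, Cldn19 and Nos1 below it. None passed an adjusted p of 0.05 in any comparison in limma. In dB/dB catalase-Tg against catalase-Tg, 8 of the 11 lay above 0 and 7 had an unadjusted p under 0.05 upward, with a median of 1.80. Over all probe sets 37.9% lay above 0 there, 2.67% had such a p upward and the median was -0.10. In catalase-Tg against wild type, 10 of the 11 lay below 0 and 8 had an unadjusted p under 0.05 downward, with a median of -1.83. Over all probe sets 47.5% lay above 0 there, 6.28% had such a p downward and the median was -0.02. The medians in dB/dB against wild type (0.28) and in dB/dB catalase-Tg against dB/dB (-0.19) were smaller.

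Sostdc1, a secreted inhibitor of bone morphogenetic protein signalling, averaged 10.25 ± 0.28 in dB/dB catalase-Tg, 11.42 ± 0.29 in dB/dB, 6.65 ± 1.79 in catalase-Tg and 9.58 ± 1.88 in wild type. Its difference in dB/dB catalase-Tg against catalase-Tg was 3.60 (SE 0.95, limma adjusted p = 0.541) and in catalase-Tg against wild type -2.93 (SE 0.95, limma adjusted p = 0.510). Casr, the calcium-sensing receptor, and Stk39, a kinase that activates both salt cotransporters, differed by -2.33 (SE 0.81) and -1.99 (SE 0.72) in catalase-Tg against wild type. Ptger3, a prostaglandin receptor, was 1.80 higher in dB/dB catalase-Tg than in catalase-Tg (SE 0.62), and Stk39 was 2.01 higher (SE 0.72). Ppp1r1a, an inhibitor of protein phosphatase 1, had the smallest p of the list in dB/dB catalase-Tg against dB/dB, with a difference of -1.65 (SE 0.85). Cldn10, another claudin, ran the other way, at 10.35 ± 0.46 in dB/dB catalase-Tg, 9.72 ± 0.37 in dB/dB, 10.69 ± 0.05 in catalase-Tg and 10.57 ± 0.72 in wild type. It was the one gene of the list with an unadjusted p under 0.05 in dB/dB against wild type, with a difference of -0.85 (SE 0.36, limma adjusted p = 0.767). Among the wild-type arrays it was lowest on wild type 1 (9.74) and highest on wild type 2 (11.08), as was the proximal tubule score given below. Whether this RNA came from the thick limb was not tested.

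Of 20 further genes of the distal convoluted and connecting tubule, 18 had a probe set and 14 passed the filter, with Trpv6, Atp2b4, Kcna1 and Fgf13 below it and Klhl3 and Trpv5 without a probe set. None passed an adjusted p of 0.05 in any comparison in limma. In dB/dB catalase-Tg against catalase-Tg, 11 of the 14 lay above 0, 5 with an unadjusted p under 0.05 (2.67% of all upward), and the median was 1.09, beside 37.9% above 0 and a median of -0.10 over all probe sets. In catalase-Tg against wild type, 13 lay below 0, 3 with an unadjusted p under 0.05 (6.28% of all downward), and the median was -0.87, beside -0.02 over all probe sets. The medians were 0.72 in dB/dB against wild type and -0.38 in dB/dB catalase-Tg against dB/dB.

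S100g, a small calcium-binding protein related in function to Calb1, read 10.92, 9.14 and 9.03 (log2) on the dB/dB catalase-Tg arrays, 9.87, 8.89 and 10.87 on the dB/dB arrays, 6.61, 6.10 and 6.38 on the catalase-Tg arrays, and 11.01, 8.52 and 8.84 on the wild-type arrays. All catalase-Tg arrays were below all others, and the other 3 groups overlapped. Its differences were 3.34 (SE 0.73, limma adjusted p = 0.460) in dB/dB catalase-Tg against catalase-Tg and -3.10 (SE 0.73, limma adjusted p = 0.359) in catalase-Tg against wild type. Slc8a1, the basolateral sodium-calcium exchanger, differed by 3.94 (SE 1.08) in dB/dB catalase-Tg against catalase-Tg and by -2.74 (SE 1.08) in catalase-Tg against wild type. Kcnj10, a basolateral potassium channel, differed by 2.08 (SE 0.75) and -1.69 (SE 0.75) in the same comparisons.

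Hsd11b2, the enzyme that inactivates glucocorticoids in mineralocorticoid target cells, read 7.31, 4.43 and 4.36 (log2) on the dB/dB catalase-Tg arrays, 6.13, 6.02 and 6.68 on the dB/dB arrays, 4.37, 4.26 and 4.10 on the catalase-Tg arrays, and 4.79, 4.18 and 4.27 on the wild-type arrays. The dB/dB arrays were above all catalase-Tg and wild-type arrays, and dB/dB catalase-Tg 1 was above all others while its companions were not. The difference in dB/dB against wild type was 1.86 (SE 0.64, limma adjusted p = 0.767), the smallest p of the list there. Nr3c2, the mineralocorticoid receptor, had the smallest p of the list in dB/dB catalase-Tg against dB/dB, with a difference of -1.20 (SE 0.54, limma adjusted p = 0.636).

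Markers of other kidney cells also differed between the arrays of a group. In the score described above, the podocyte list (6 genes tested of 7) ranged over the arrays of a group from -1.70 to 0.80 in dB/dB catalase-Tg, from 0.45 to 2.61 in dB/dB, from -2.07 to -1.45 in catalase-Tg and from -1.95 to 2.43 in wild type. The endothelial list (8 of 8) ranged from -1.33 to 1.44 in dB/dB catalase-Tg, from 0.83 to 1.88 in dB/dB, from -1.68 to -0.22 in catalase-Tg and from -1.60 to 1.67 in wild type. The list of fibroblast and mural cells (4 of 7) ranged from -1.55 to 2.13 in dB/dB catalase-Tg, from 0.87 to 2.08 in dB/dB, from -2.12 to -0.09 in catalase-Tg and from -1.95 to 2.08 in wild type. In all 3 lists wild type 1 was the highest and wild type 2 the lowest array of its group, as for the 9 genes. The leukocyte and collecting duct lists, given next, had that order of wild-type arrays too. The leukocyte list (4 of 6) ranged from -1.10 to 2.12 in dB/dB catalase-Tg, from -0.36 to 1.61 in dB/dB, from -1.60 to 0.83 in catalase-Tg and from -1.04 to 0.70 in wild type. For all 4 lists the dB/dB catalase-Tg and catalase-Tg ranges overlapped. In the endothelial, the fibroblast and mural, and the leukocyte lists this overlap rested on catalase-Tg 1 (-0.22, -0.09 and 0.83). The ranges of each of the 9 genes did not overlap, and neither did those of the collecting duct score given next, though single genes of that list did.

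The collecting duct list, the segment that follows the distal tubule, had 5 of 10 genes past the filter. Its score ranged from -0.09 to 1.08 in dB/dB catalase-Tg, from 0.27 to 1.17 in dB/dB, from -0.95 to -0.85 in catalase-Tg and from -1.04 to 0.50 in wild type. Its defining water channel Aqp2 was at the floor of 2.30 on all 12 arrays, and Avpr2, Scnn1b, Scnn1g and Foxi1 were also below the filter. Of the 5 genes tested, Aqp3 alone averaged lower in dB/dB catalase-Tg (5.93) than in catalase-Tg (6.47). The arrays of these groups overlapped for Aqp3 and for Slc4a1. The proximal tubule list (9 of 10) ranged from -0.23 to 0.73 in dB/dB catalase-Tg, from -0.50 to -0.19 in dB/dB, from -0.28 to 0.63 in catalase-Tg and from -1.97 to 0.72 in wild type. Its lowest array was wild type 1, where the scores of both segments were highest. No marker of any of the 6 lists passed an adjusted p of 0.05 in any comparison in limma. The part of these other cell types in the differences of the 9 genes was not tested.

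Over the 12 arrays, the genes most like the mean profile of the thick limb genes, of 9735 genes ranked by Pearson's r, were Epcam (0.988), Slit2 (0.985), Slc5a3 (0.985) and Mal2 (0.985). Epcam, an adhesion protein of epithelial cells, averaged 7.06 ± 0.39 (log2) in dB/dB catalase-Tg, 8.28 ± 0.36 in dB/dB, 4.47 ± 1.30 in catalase-Tg and 6.92 ± 1.89 in wild type. Those most like the distal convoluted profile were Kng1 (0.993), Ckmt1 (0.993), Uroc1 (0.992) and Defb1 (0.991). Ckmt1, the mitochondrial creatine kinase, averaged 7.80 ± 0.57 in dB/dB catalase-Tg, 8.79 ± 0.22 in dB/dB, 5.14 ± 0.45 in catalase-Tg and 7.15 ± 2.23 in wild type. These correlations describe 12 arrays that share the group structure and the outlying arrays, and they carry no test.

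The 9 genes had 17 probe sets between them, and 15 passed the filter. The 6 not chosen correlated with the chosen probe set of their gene over the 12 arrays at 0.891 (Slc12a3), 0.974 (Kcnj1), 0.985 (Trpm6), 0.987 and 0.989 (Calb1) and 0.989 (Umod). All 6 had the same sign as the chosen probe set in each of the 4 comparisons of groups and in both average differences, and 5 of 6 did in the interaction.

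**Figure D4:**
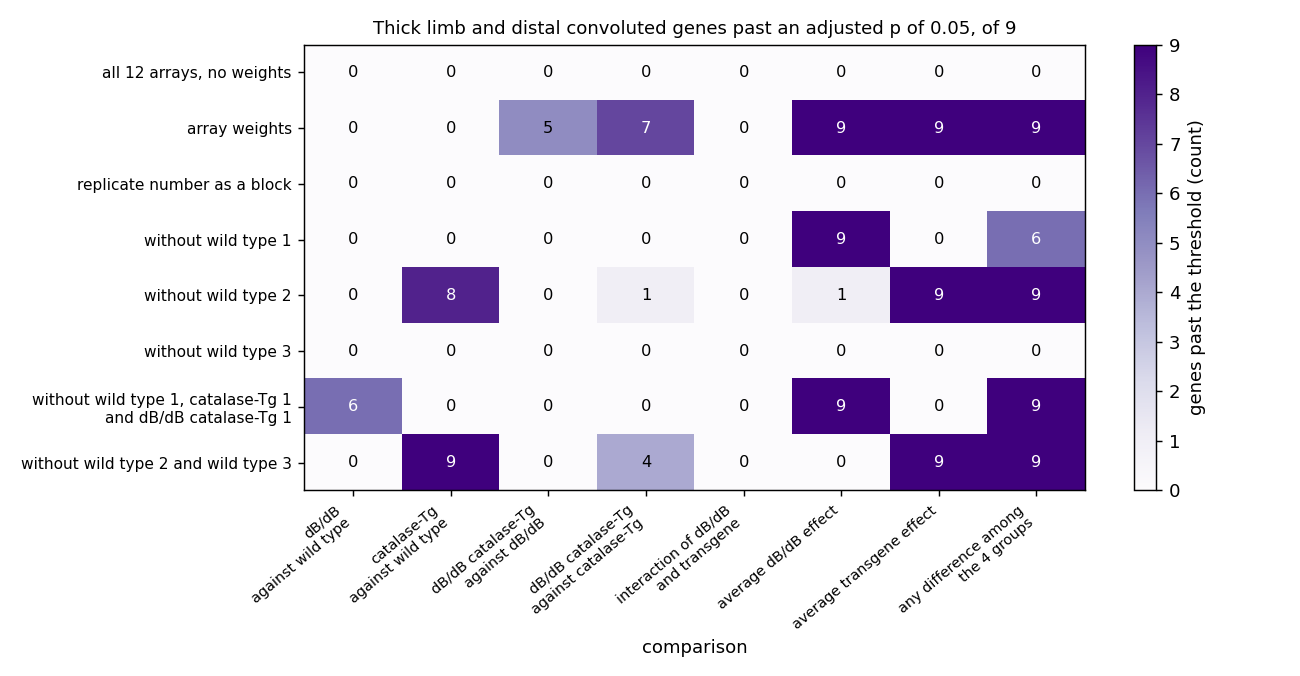
Number of the 9 genes past an adjusted p of 0.05 in limma, for each comparison (columns) and each setting of the analysis (rows). Colour and the printed number give the count. In the unweighted fit of all 12 arrays it is 0 throughout, and with array weights or without particular arrays it reaches 9.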

How the data were processed

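RNA from Percoll-isolated proximal tubules was hybridised to 12 Affymetrix arrays, 3 for each of 4 groups taken from the sample titles. The authors deposited log2 values, 1 per probe set and array. Per the submitters' processing notes GCRMA was used, which subtracts background by probe composition, normalizes the arrays to each other and summarises probes, and limma is named too. Their versions are not given in the sources used here. Values lay between 2.30, a floor that can compress differences of dim probe sets, and 15.66, and nothing further was normalized. Precision is limited by how few arrays each group has.

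The file held 45101 probe sets, of which 64 array controls were dropped. Of the remaining 45037, the platform annotation gives a single gene symbol to 34945, several to 932 and no symbol to 9160, and genes were named only from the first kind. The filter, a log2 value above 4 on 3 or more of the 12 arrays, kept 18144. limma 3.58.1 in R 4.3.3 fitted a mean for each group to all 12 arrays together, with moderated variances at their defaults, and p-values were adjusted by Benjamini-Hochberg over the 18144, with 0.05 as the threshold. SD is that of the 3 arrays of a group and SE that of the moderated test. The procedure was tested on simulated data.

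The 9 genes, the context lists, the marker lists and the alternatives were chosen with earlier results of these data known, and the count of genes called is therefore a description beside the share of all probe sets called. All 9 genes are named. From the lists of further thick limb genes and of further distal convoluted and connecting tubule genes, up to 3 genes with the smallest p per comparison may be named, and for each segment the 4 genes most like its mean profile. The marker lists were those of proximal tubule, collecting duct, podocyte, endothelial, fibroblast and mural, and leukocyte cells. Slc34a1, Slc22a6, Slc22a8, Slc13a3, Lrp2, Aqp2, Aqp3, Slc4a1, Xist and Eif2s3y were named as checks, and the markers that failed the filter or had no probe set by that fact. Alternatives were other filters, another spread estimate, array weights, quantile normalization, centring, the 2 groups of a comparison alone, the replicate number as a block, 1 probe set per gene, the mean of a gene's probe sets, and arrays left out singly or together. Deviations from the group means correlated between same-numbered arrays at 0.20 to 0.71 in the 9 pairs among dB/dB catalase-Tg, catalase-Tg and wild type, and at -0.18 to 0.22 in the 9 pairs with dB/dB. This check cannot tell a pairing by number from outlying arrays that share a number. Sample 1 had the lowest weight of its group in dB/dB catalase-Tg, catalase-Tg and wild type. The labels say nothing of pairing. Promoter windows came from RefSeq on GRCm38.p6.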

Additional observations from a re-analysis of the deposited data

How the results depend on the processing

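No gene of the 9 passed an adjusted p of 0.05 in limma in any of the 8 comparisons, and the count stayed at 0 with no filter, with a filter at 6, with the other spread estimate, with quantile normalization, with centring on array medians, with 1 probe set per gene and with the mean of a gene's probe sets. The replicate number as a block also gave 0 in all 8. A fit of dB/dB catalase-Tg, catalase-Tg and wild type with that block was added after seeing the data. In it 0 of the 9 passed in dB/dB catalase-Tg against catalase-Tg (0 probe sets in all, 5 with no block). In catalase-Tg against wild type 0 passed (2 in all, 4 with no block), so that the block changed no call of the 9 genes.

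Array weights gave 5 genes in dB/dB catalase-Tg against dB/dB (beside 6989 of 18144 probe sets), 7 in dB/dB catalase-Tg against catalase-Tg (883), and 9 in the average dB/dB effect (1975), the average transgene effect (4785) and the F test (7760). Leaving out dB/dB catalase-Tg 1, catalase-Tg 1 and wild type 1 gave 6 in dB/dB against wild type (beside 4875 probe sets). It gave 9 in the average dB/dB effect (3515) and the F test (5755). It gave 0 in the average transgene effect (3711), catalase-Tg against wild type (31) and dB/dB catalase-Tg against catalase-Tg (23). The count was also 0 in dB/dB catalase-Tg against dB/dB (5043) and in the interaction (143). Leaving out wild type 2 and wild type 3 gave 9 in catalase-Tg against wild type (beside 2180 probe sets), 4 in dB/dB catalase-Tg against catalase-Tg (174), and 9 in the average transgene effect (3375) and the F test (1590). With its own 2 groups alone, dB/dB catalase-Tg against catalase-Tg gave 1 (beside 6 of 18144 probe sets). Without the wild-type group, an alternative added after seeing the data, it gave 4 (174).

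With each array left out in turn, the count ran from 0 to 0 in dB/dB against wild type, in dB/dB catalase-Tg against dB/dB and in the interaction, from 0 to 8 in catalase-Tg against wild type, from 0 to 1 in dB/dB catalase-Tg against catalase-Tg, and from 0 to 9 in the average dB/dB effect, the average transgene effect and the F test.

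Directions turned in 2 comparisons. With wild type 1 as the one wild-type array, the differences in dB/dB against wild type were -0.14 for Umod, -0.68 for Slc12a1, -0.63 for Kcnj1, -0.73 for Cldn16, -0.17 for Slc12a3, -0.64 for Pvalb, -0.59 for Egf and -0.71 for Trpm6. With each array left out they ran from -0.15 to 1.23 for Slc12a1, -0.022 to 1.60 for Cldn16 and -0.17 to 1.09 for Egf. The interaction without dB/dB catalase-Tg 1, catalase-Tg 1 and wild type 1 was -0.53 for Kcnj1, -1.56 for Slc12a3, -0.99 for Pvalb and -1.06 for Trpm6, and with array weights -0.98 for Slc12a3, -0.29 for Pvalb and -0.19 for Trpm6. With the mean of its probe sets it was -0.20 for Slc12a3. With each array left out it ran from -1.005 to 1.38 for Slc12a3, -0.24 to 1.90 for Pvalb and -0.37 to 2.57 for Trpm6. In the other 5 comparisons with a direction no difference of the 9 genes turned under any alternative run. The cause of these changes was not tested. Cldn16 and Trpm6 came near the floor of the deposited values on single arrays (3.18 and 3.89), where differences may be understated.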
